A study of Mus musculus with 13 samples.

Results

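Promoters that carried at least 2-fold less H3K4me3 in Nup210 knockout (KO) cells than in sg-Ctrl cells were taken from ChIP-seq peak lists of 4T1, a mouse mammary tumor cell line of BALB/cJ origin. For each gene with a listed H3K4me3 peak in both libraries, the peak with the most reads per kb was used. Its ChIP reads were divided by its width in kb and by the size of the ChIP library relative to the IgG library, which gives scaled reads per kb. A gene was a member when this value in KO was at most 0.5 of that in sg-Ctrl. The rule selected 1178 of 12197 genes, which is 9.66% (95% Wilson interval 9.15 to 10.2). Since these values chose the members, they are given as a description, with no test.

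Trimethylation of histone H3 at lysine 4 (H3K4me3) is deposited around transcription start sites (TSS) by SET1 and MLL complexes and marks promoters that are active or poised. NUP210 is a transmembrane nucleoporin of the nuclear pore, and the study asked how its loss changes chromatin marks. Genes with CpG-rich promoters usually carry broad H3K4me3 in most cell types, whereas inducible genes such as chemokines often have CpG-poor promoters and gain the mark on stimulation.

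The sg-Ctrl cells carried a non-targeting guide RNA. The KO cells (KO-N13) carried a guide against a Nup210 exon and were expanded from a single cell after CRISPR/Cas9 editing, so they stand for 1 clone. According to the study's methods, both received the guide by lentivirus with puromycin selection and Cas9 transiently by adenovirus. H3K4me3 was profiled with antibody clone MC315, with 1 library per condition, and both libraries were scored against IgG reads of the same control. H3K27me3, the mark of Polycomb repression, was likewise profiled once in each line, and NUP210 and NPC (an antibody to several pore proteins) once in sg-Ctrl cells. There were no replicates, so the clone, the culture and the library cannot be told apart from the knockout. Intervals cover counting error only.

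Several members that encode secreted signals or stress enzymes are shown by the 250 bases before their RefSeq start (GRCm38.p6, written 5′ to 3′), because they differ from the CpG-rich promoters that make up most of the set. Capitals mark GGAATTTCC, GGAAATTCC or GGACTTTCC, letters that NF-kB proteins can bind, TATAAA (the TATA box), and TGACTCA or TGAGTCA (AP-1), each searched on both strands. The 2 AP-1 spellings are reverse complements of each other, as are the first 2 NF-kB spellings. Over the window from 250 bases before to 50 after the start, 0.796% of 9548 promoters of genes in both lists held the NF-kB letters, 6.46% the TATA box and 3.46% the AP-1 motif. No motif overlapped another in the promoters shown. Cxcl1 (chr5:90890995-90891244, plus strand) and Cxcl2 (chr5:90903649-90903898, plus strand) encode chemokines. Il1a (chr2:129309973-129310222, minus strand) encodes interleukin 1 alpha, and Nqo1 (chr8:107403206-107403455, minus strand) encodes a quinone reductase of the oxidative stress response. Serpinb2 (chr1:107511173-107511422, plus strand) encodes an inhibitor of plasminogen activators and Inhba (chr13:16011601-16011850, plus strand) the beta A subunit of activin.
Cxcl1: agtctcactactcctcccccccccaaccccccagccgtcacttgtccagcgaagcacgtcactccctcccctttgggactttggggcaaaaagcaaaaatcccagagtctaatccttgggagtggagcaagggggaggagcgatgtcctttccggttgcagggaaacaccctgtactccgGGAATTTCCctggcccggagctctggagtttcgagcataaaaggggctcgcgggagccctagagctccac
Cxcl2: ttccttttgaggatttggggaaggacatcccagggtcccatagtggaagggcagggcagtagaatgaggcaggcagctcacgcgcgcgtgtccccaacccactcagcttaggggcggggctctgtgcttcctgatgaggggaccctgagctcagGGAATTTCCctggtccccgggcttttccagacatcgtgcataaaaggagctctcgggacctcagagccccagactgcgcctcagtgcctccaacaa
Il1a: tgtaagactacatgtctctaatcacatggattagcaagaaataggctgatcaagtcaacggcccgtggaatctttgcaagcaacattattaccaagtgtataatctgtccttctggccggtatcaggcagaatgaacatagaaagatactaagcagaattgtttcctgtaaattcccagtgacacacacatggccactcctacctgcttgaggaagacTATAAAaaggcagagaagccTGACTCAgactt
Nqo1: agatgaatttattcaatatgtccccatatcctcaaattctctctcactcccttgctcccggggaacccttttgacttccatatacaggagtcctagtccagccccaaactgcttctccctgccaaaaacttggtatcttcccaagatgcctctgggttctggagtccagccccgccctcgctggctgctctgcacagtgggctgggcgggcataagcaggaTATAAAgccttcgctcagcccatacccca
Serpinb2: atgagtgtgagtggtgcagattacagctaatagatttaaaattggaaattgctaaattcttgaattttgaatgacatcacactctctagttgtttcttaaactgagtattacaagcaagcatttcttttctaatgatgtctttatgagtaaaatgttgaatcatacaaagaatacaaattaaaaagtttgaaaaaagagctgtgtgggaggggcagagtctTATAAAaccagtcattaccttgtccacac
Inhba: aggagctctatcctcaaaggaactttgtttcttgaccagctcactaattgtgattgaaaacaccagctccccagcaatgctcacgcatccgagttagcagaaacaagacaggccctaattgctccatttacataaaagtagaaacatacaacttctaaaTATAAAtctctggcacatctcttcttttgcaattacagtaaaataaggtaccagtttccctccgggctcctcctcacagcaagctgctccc
The NF-kB letters began at base -70 of Cxcl1 and -96 of Cxcl2, with -1 the last base before the start. TATAAA began at base -32 of Il1a, -29 of Nqo1, -29 of Serpinb2 and -91 of Inhba, and the AP-1 motif at -12 of Il1a. The RefSeq start of Inhba lies 2623 bp from the start in the peak list, while for the others shown both starts lie within 1 bp, so its sequence belongs to another start than the one its H3K4me3 peak was assigned to. Both Inhba peaks also cover the bases shown. A match of letters is a description and not a binding site.

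For contrast, 3 further members are shown with each CpG in capitals. Hjurp (chr1:88277580-88277829, minus strand), which loads the centromeric histone, and Cd47 (chr16:49855404-49855653, plus strand), a surface protein that inhibits phagocytosis, were among the 10 members with the highest sg-Ctrl level. Tmem176a (chr6:48841233-48841482, plus strand), a transmembrane protein gene, was among the 10 members with the lowest ratio.
Hjurp: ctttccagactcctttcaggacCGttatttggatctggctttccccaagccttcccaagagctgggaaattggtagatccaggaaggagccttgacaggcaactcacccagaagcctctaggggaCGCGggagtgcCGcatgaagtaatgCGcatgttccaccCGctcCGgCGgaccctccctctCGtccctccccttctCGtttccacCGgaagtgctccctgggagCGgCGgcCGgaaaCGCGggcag
Cd47: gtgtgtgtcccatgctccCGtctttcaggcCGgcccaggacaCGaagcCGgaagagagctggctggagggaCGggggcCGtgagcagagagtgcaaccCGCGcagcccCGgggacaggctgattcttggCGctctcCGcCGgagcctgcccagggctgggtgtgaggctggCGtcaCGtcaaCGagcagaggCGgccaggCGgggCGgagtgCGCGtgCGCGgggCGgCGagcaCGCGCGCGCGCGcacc
Tmem176a: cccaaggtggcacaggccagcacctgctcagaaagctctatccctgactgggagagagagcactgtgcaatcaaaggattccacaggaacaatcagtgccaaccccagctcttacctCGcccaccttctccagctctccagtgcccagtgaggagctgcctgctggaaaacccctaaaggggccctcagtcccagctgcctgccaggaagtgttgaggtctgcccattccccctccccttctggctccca
These 250 bases held 16 CpG in Hjurp, 30 in Cd47 and 1 in Tmem176a, beside 10 in Cxcl1, 3 in Il1a and 5 in Nqo1. The ratio of observed to expected CpG was 0.698 in Hjurp, 0.916 in Cd47 and 0.0474 in Tmem176a.

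By the scaling of the lists, the KO library was 1.27 times the size of the sg-Ctrl library. Their listed peaks held 24873356 reads in KO and 26236314 in sg-Ctrl. All 10 of the mammary epithelial markers checked had an H3K4me3 peak in both lines. None of these 10 was a member, beside 9.66% of all genes, and 10 genes are too few to set against that share. None of the 6 endothelial markers had a peak in both lines, and 2 of 10 immune and 2 of 7 fibroblast markers did. At the Nup210 promoter itself, 885 reads were listed for sg-Ctrl and 913 for KO, and scaled reads per kb gave a log2 ratio of -0.41. Promoter signal lies outside the edited exon and so does not check the knockout, and NUP210 was not profiled by ChIP-seq in KO cells. The study reported that it sequenced the Nup210 mutation and checked the knockout by western blot.

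The median gene in both lists was itself lower in KO, at a log2 ratio of -0.50, and the members' median was -1.15. In sg-Ctrl, the members' scaled reads per kb ran from 77.7 to 2768 with a median of 767, and in KO from 31.2 to 1159 with a median of 337. The medians over all genes were 543 and 382. The plot of both libraries shows the members as the lower edge of one continuous cloud. Values next to the threshold differed little, since P4hb, Cited2 and Rexo1 lay just inside at ratios of 0.4997, 0.4996 and 0.4995, and Nub1, Col8a1 and Gatad1 just outside at 0.5001, 0.5001 and 0.5003. Counting error alone left the upper limit of the ratio at or under 0.5 for 793 members. A ratio of at most 0.25 was reached by 24 members.

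**Figure D1:**
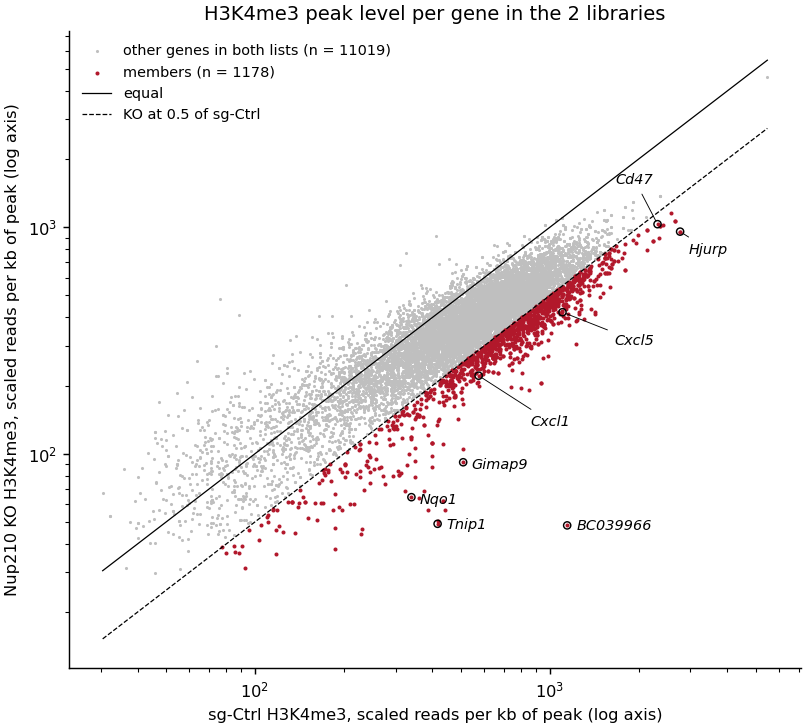
H3K4me3 scaled reads per kb of each gene's peak in sg-Ctrl (x axis) and Nup210 KO (y axis), both on log axes, with members in red, other genes in grey, an unbroken line at equal levels and a dashed line at a ratio of 0.5. Members follow the lower edge of the cloud, and BC039966, Tnip1, Nqo1 and Gimap9 lie far under it.

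The number of genes that met the rule depended on the scaling. When the libraries were scaled by the reads in peaks that both lists share, the log2 ratio of every gene went up by 0.42 and 153 genes had a ratio of at most 0.5, all of them members (1.25% of all genes). When each gene was set against the median of its chromosome, 102 members remained at or under 0.5 (0.836% of all genes). BC039966 stood at -3.85 after subtraction of its chromosome median, Tnip1 at -2.60 and Nqo1 at -2.04, whereas Cxcl5 stood at -0.67 and Cxcl1 at -0.65.

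A ratio of reads per kb can be lower because the peak holds fewer reads or because it is wider. Among the members, 462 had scaled reads of at most 0.5 in KO whatever the width, 655 had reads lower by less than that in a wider peak, and 61 had more scaled reads in KO, spread over a still wider peak. Over all genes, 7.63% had scaled reads of at most 0.5, so that 931 genes met this measure and 462 of them were members. The median peak of the members was 3600 bp wide in sg-Ctrl and 5000 bp in KO, and over all genes it was 3600 and 4200 bp. The KO peak was wider in 72.9% of members (70.3 to 75.4) and in 63.1% of all genes (62.2 to 63.9). Width entered the rule, so this share describes the selection.

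**Figure D2:**
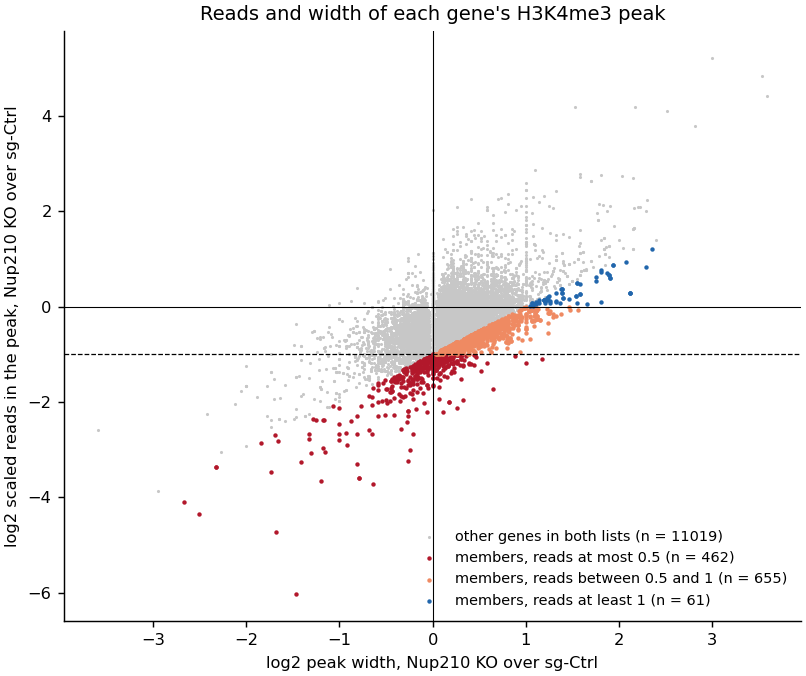
Log2 ratio of peak width (x axis) against log2 ratio of scaled reads in the peak (y axis), KO over sg-Ctrl, for every gene in both lists. Members with reads of at most 0.5 (dark red, 462) lie under the dashed line at -1, members with reads between 0.5 and 1 (orange, 655) lie to the right of zero width change, and 61 members with more reads in KO (blue) lie beyond a log2 width ratio of 1.

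Ndufs8, a subunit of respiratory complex I, was of the last kind. Its peak held 3125 reads over 2.8 kb in sg-Ctrl and 7552 reads over 11.8 kb in KO. Its scaled reads were higher in KO by 0.93 on the log2 scale, while its scaled reads per kb were lower, at 1052 and 475. The histone gene Hist1h2bl likewise had 3250 reads over 4 kb in sg-Ctrl and 6546 reads over 14.8 kb in KO. Its sg-Ctrl peak lay 2944 bp from the start, and with the peak at the start itself the log2 ratio was 0.23. A KO peak that met 2 or more sg-Ctrl peaks was found for 77 members, or 6.54%, and for 1.98% of all genes. The taken sg-Ctrl peak covered the TSS itself in 1049 members (89.0%; 91.0% of all genes), and in the others lay elsewhere within 4 kb of it.

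The members with the lowest ratios held few reads in KO. BC039966 had 2673 reads in sg-Ctrl but 52 in KO, which was 1146 and 48.3 scaled reads per kb, a log2 ratio of -4.57 (95% counting interval -4.99 to -4.17). Tnip1, an inhibitor of NF-kB signalling, had 1237 and 119 reads and a log2 ratio of -3.09 (-3.37 to -2.81). C920009B18Rik had 1420 and 68 reads, at -3.05. Cd1d1, which presents lipid antigens to natural killer T cells, had 563 and 76 reads, at -2.97. In each of these the KO peak was also narrower than the sg-Ctrl peak. The KO peak was 2.76-fold over IgG at BC039966, 3.40-fold at Tnip1 and 1.20-fold at C920009B18Rik, beside a median of 36.6-fold over all genes. Cd1d1 had no IgG reads in either peak. The first 3 KO values thus lie near the IgG level, which the counting intervals do not cover.

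Tmem176a and Tmem176b, which start from a shared promoter, lie in 1 peak with 1748 reads in sg-Ctrl and 184 in KO, so their log2 ratio of -2.80 is a single measurement. Gimap9, a GTPase gene of the immune-associated family, had 1726 and 173 reads and a log2 ratio of -2.47 (-2.70 to -2.24). Tigd4 had 536 and 69 reads, at -2.49, and Gsg1 had 1753 and 351 reads, at -2.45, in peaks that lay 1227 and 1516 bp from their starts in sg-Ctrl. Nqo1 had 720 and 208 reads, which was 339 and 64.3 scaled reads per kb and a log2 ratio of -2.40 (-2.63 to -2.18). Its KO peak was slightly wider, at 2.4 kb against 2 kb, and its reads alone differed by -2.14.

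At the other end stood members with very strong H3K4me3 in sg-Ctrl. Hjurp, which shares its peak with A730008H23Rik, had 17027 reads over 5.8 kb in sg-Ctrl and 12897 over 10 kb in KO, or 2768 and 957 scaled reads per kb. Mtbp and Mrpl13, again with 1 shared peak, had 2651 and 1062 scaled reads per kb. Jmjd1c, a member of the JmjC family of demethylases, had 2413 and 1028, and the peak listed for both Mir125b-1 and 2610203C20Rik had 2356 and 1015. Mnda, an interferon-inducible nuclear protein gene, had 2343 and 894, and Cd47 had 2320 and 1032. The peaks of Hjurp, Mtbp and Cd47 were wider in KO, with log2 ratios of reads alone of -0.75, -0.58 and -0.73, while those of Jmjd1c and Mnda were narrower, at -1.37 and -1.65.

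The share of members went up with the sg-Ctrl level, which is itself part of the ratio. It was 4.85% in the lowest of 4 groups of genes by sg-Ctrl scaled reads per kb, 5.08% and 9.06% in the next ones, and 19.6% in the highest, where 599 of 3049 genes were members.

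Chemokine genes had the highest share of members of the 27 gene lists given here. Chemokines are small secreted proteins that attract leukocytes through receptors on the cell surface. Of 58 chemokine and receptor genes, 14 had an H3K4me3 peak in sg-Ctrl and 11 in both libraries. Of these 11, 5 were members (95% Wilson interval 21.3 to 71.99%), all ligands of the CXC family, where 9.66% of all genes were. All 5 lie on chromosome 5, and with shared-peak scaling or the chromosome median removed none of them was at or under 0.5. The study had itself picked out chemokines on these samples, so this count is not independent evidence. A further 3 genes, Ccl2, Cxcl3 and Cxcl9, were listed in sg-Ctrl alone and so had no ratio.

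Cxcl5, a neutrophil attractant, had 5389 reads in sg-Ctrl and 2615 in KO over peaks of 4.6 kb, which was 1105 and 422 scaled reads per kb and a log2 ratio of -1.39 (-1.46 to -1.32). Cxcl1 had 2435 and 1550 reads, or 574 and 221 scaled reads per kb, at -1.38 (-1.47 to -1.28). Cxcl2 had 1261 reads in a peak of 5.8 kb in sg-Ctrl and 248 in a peak of 1.8 kb in KO, where a further peak was listed beside it. Its log2 ratio was -1.003 per kb (-1.21 to -0.81), an interval that spans the threshold, and -2.69 in reads.

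The other members of the group had a taken peak away from their start. Ppbp had a low level in both lines, with 288 and 157 reads and 79.9 and 36.4 scaled reads per kb (log2 ratio -1.13, -1.42 to -0.85), in peaks 1718 and 2118 bp from the start. Cxcl10, which attracts T cells and is induced by interferon, had 1230 and 1221 reads (log2 ratio -1.16) in peaks 3911 and 3311 bp away, at the edge of its window. At the Cxcl10 start itself the peaks had 565 and 452 reads, or 266 and 186 scaled reads per kb, and a log2 ratio of -0.52. That peak does not meet the rule, so only the distant one made Cxcl10 a member.

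These genes lie together. Rassf6, Cxcl5, Ppbp, Cxcl1 and Cxcl2 form a run of 5 neighbouring members over 266 kb (chr5:90638401-90904400 in the coordinates of the lists), and the next listed gene, Mthfd2l, was just outside the threshold at -0.96. With the chromosome median removed, the ratios of these 5 genes lay between -0.67 and -0.28.

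**Figure D3:**
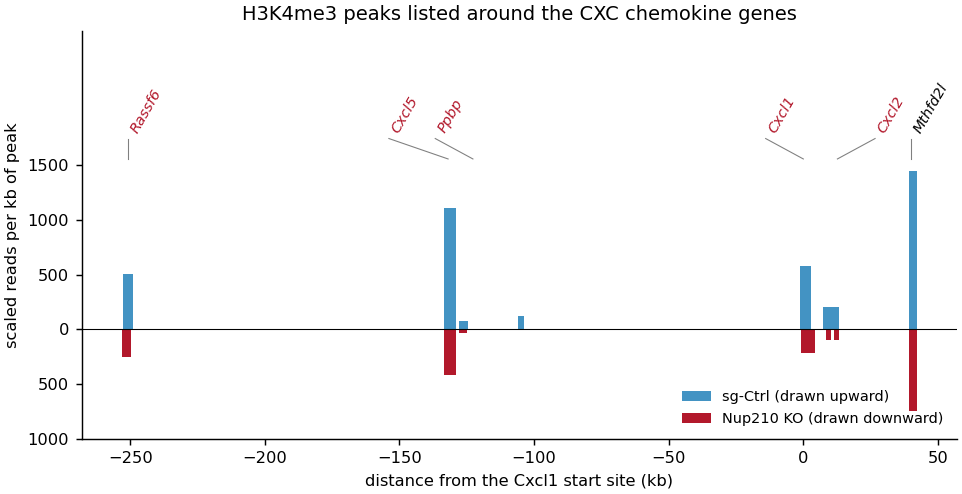
H3K4me3 peaks around Cxcl1, drawn to scale in kb from its start site, with sg-Ctrl scaled reads per kb upward (blue) and in KO downward (red) and members named in red. Every peak shown is lower in KO, and the small peak between Ppbp and Cxcl1, which belongs to Cxcl3, is listed in sg-Ctrl alone.

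Il1a, of the interleukin 1 family, was also a member. It had 1171 reads in sg-Ctrl and 179 in KO, or 276 and 73.8 scaled reads per kb, a log2 ratio of -1.90 (-2.14 to -1.67). Il18rap, a subunit of the interleukin 18 receptor, had 1807 and 704 reads, at -1.26. Of 12 interleukin 1 family and receptor genes with peaks in both lines, these 2 were members (16.7%, 4.70 to 44.8). That interval includes 9.66%. Among genes of NF-kB signalling, 4 of 37 were members (10.8%, 4.29 to 24.7), near the 9.66% of all genes. They included Rel, a subunit, at 1113 and 507 scaled reads per kb, and the inhibitors Tnip1 and Tnfaip3, the latter at 1472 and 679.

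Interferon response genes gave 6 members of 42 (14.3%, 6.72 to 27.8), an interval that includes the 9.66% of all genes. With shared-peak scaling 1 of these members was at or under 0.5, and with the chromosome median removed none was. The median log2 ratio of the list was -0.34, beside -0.50 over all genes. Oas3, an RNA sensor, had 596 and 251 reads (log2 ratio -1.49), Gbp2, a guanylate-binding protein, 3238 and 1848 reads (-1.39), and Oas1a 268 and 102 reads (-1.25). The interferon-inducible genes Ifi204, Mndal, Mnda and Ifi203 form a further run of 4 neighbouring members over 179 kb of chromosome 1. Their scaled reads per kb were 1090 and 382 at Ifi204, 1226 and 306 at Mndal, 2343 and 894 at Mnda, and 417 and 139 at Ifi203. After subtraction of the chromosome median they lay between -1.49 and -0.88.

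Adhesion lists lay on either side of the 9.66% of all genes. Among the migration genes that the study singled out on these samples, Il1a, Itgb2 and Cxcl1 were members. Itgb2, the beta 2 integrin, had 972 reads in sg-Ctrl and 193 in KO, or 327 and 89.6 scaled reads per kb, at -1.87 (-2.10 to -1.65). Ptk2, which encodes focal adhesion kinase, had 1423 and 726 and just missed the rule at -0.97. Of 16 integrin genes 2 were members (12.5%, 3.50 to 36.0), the other being Itgb1 at 1401 and 548. Of 45 focal adhesion and actin linker genes 2 were members (Tln1 and Lpxn), which is 4.44% (1.23 to 14.8). Both intervals include 9.66%.

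The LINC complex connects the nucleus to the cytoskeleton. Of the genes of this complex and the nuclear lamina, 3 of 21 were members (14.3%, 4.98 to 34.6). That interval includes the 9.66% of all genes. With shared-peak scaling or the chromosome median removed, none of these 3 was at or under 0.5. Syne4 had 205 and 82.7, Syne1 938 and 380 and Sun1 609 and 262 scaled reads per kb. Of the nucleoporins 3 of 30 were members (10%, 3.46 to 25.6), near the 9.66% of all genes. They were Seh1l at -1.42, Ranbp2 at -1.08 and Nup37 at -1.05.

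TGF-beta and BMP signalling had 8 members of 37 (21.6%, 11.4 to 37.2), beside 9.66% of all genes. Scaled reads of at most 0.5 were found in 7 genes of the list, and in 7.63% of all genes. With shared-peak scaling 4 of the members were at or under 0.5, and with the chromosome median removed 2 were. The median log2 ratio of the list was -0.51, beside -0.50 over all genes. In KO, 2 genes of the list were at least 2-fold higher. Fstl3, an antagonist of activin, had 294 and 79.9 scaled reads per kb (-1.88), though its reads alone differed by -0.94. Ski, a repressor of SMAD proteins, had 506 and 166 (-1.61). Inhba, which encodes the activin beta A subunit, had 10128 reads over 11.6 kb in sg-Ctrl and 3640 over 9.8 kb in KO, or 823 and 276 scaled reads per kb (-1.58, -1.63 to -1.52). Agonist, antagonist and intracellular repressor were all among the members.

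Of 7 keratin genes 2 were members (28.6%, 8.22 to 64.1), both of stratified epithelium, in an interval that includes 9.66%. Krt10 had 1234 and 390 scaled reads per kb, in a peak 1965 bp from the start in sg-Ctrl, and its reads alone differed by -0.87. Krt14 had 77.7 and 38.7, from 280 and 146 reads, and lay next to the threshold at -1.004. With the chromosome median removed 1 of them was at or under 0.5. The simple epithelial keratins Krt8, Krt18 and Krt19 were no members. Cell cycle inhibitors and tumor suppressors gave 5 of 25 (20%, 8.86 to 39.1), an interval that includes 9.66%. Of these 5 members, 4 lie on chromosomes 4, 5 and 18. With the chromosome median removed none of the 5 was at or under 0.5. The lowest were Tnfrsf14 (193 and 58.5) and Errfi1 (472 and 188), with Cdkn2c, an inhibitor of CDK4 and CDK6, at 1702 and 710. Matrix proteases and their inhibitors gave 5 of 28 (17.9%, 7.88 to 35.6), among them Serpinb2 (198 and 56.7) and Mmp3 (84.9 and 39.0). That interval also includes 9.66%. With the chromosome median removed 2 were at or under 0.5, and 1 gene of the list was at least 2-fold higher in KO.

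Genes for chromatin regulators were no more frequent among the members than all genes (9.66%). Of 21 genes of the H3K4 methylation machinery 2 were members (9.52%, 2.65 to 28.9), and of 31 Polycomb genes also 2 (6.45%, 1.79 to 20.7), and none of these 4 stayed at or under 0.5 after subtraction of the chromosome median. Kdm5a, which removes H3K4 methylation, had 897 and 320 scaled reads per kb (-1.49) and Setd1b, a methyltransferase that deposits it, 692 and 313 (-1.15). Suz12, a core subunit of Polycomb repressive complex 2, had 1480 and 621 (-1.25) and Mtf2, an accessory subunit, 1065 and 462 (-1.20). The zinc finger genes named Zfp were the largest list, with 37 members of 299 (12.4%, 9.11 to 16.6), and Zfp422 was the lowest of them at 801 and 195.

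Housekeeping lists had a lower share of members than all genes. Of 80 cytosolic ribosomal protein genes 4 were members (5%, 1.96 to 12.2) and of 78 respiratory chain genes also 4 (5.13%, 2.01 to 12.5), so the intervals of both include 9.66%. Rpl36a, Rpl37 and Rps12 stood at -1.21, -1.09 and -1.05, Ndufb9 at -1.36 and Atp5s at -1.17. The lists with the lowest shares were axon guidance with 1 of 39 (2.56%, Sema3e at -1.38) and AP-1 and immediate early genes with 1 of 28 (3.57%, Fosl2 at -1.06). In the remaining lists, 4 of 30 matrix protein genes were members (13.3%, with Cyr61, Sparc and Tnc at -1.41, -1.29 and -1.26). Of 24 Hippo genes 3 were members (12.5%, Ankrd1 -1.44, Taok3 -1.21 but -0.55 at its own start, Stk3 -1.08). Members were also 3 of 25 Notch genes (12%, Hes6 -1.18, Rbpj -1.16, Lfng -1.07) and 2 of 15 TNF superfamily genes (13.3%). Further, 6 of 59 replication-dependent histone genes, 3 of 34 genes of epithelial to mesenchymal transition and junctions (Pkp2, Snai1, Tjp1), 2 of 37 Wnt genes (Dvl2, Gsk3b) and 2 of 47 developmental transcription factors (Foxj2, Sox4) were members. In all, 122 members belonged to any of the 27 lists, and 17 lists had a higher share of members than all genes.

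**Figure D4:**
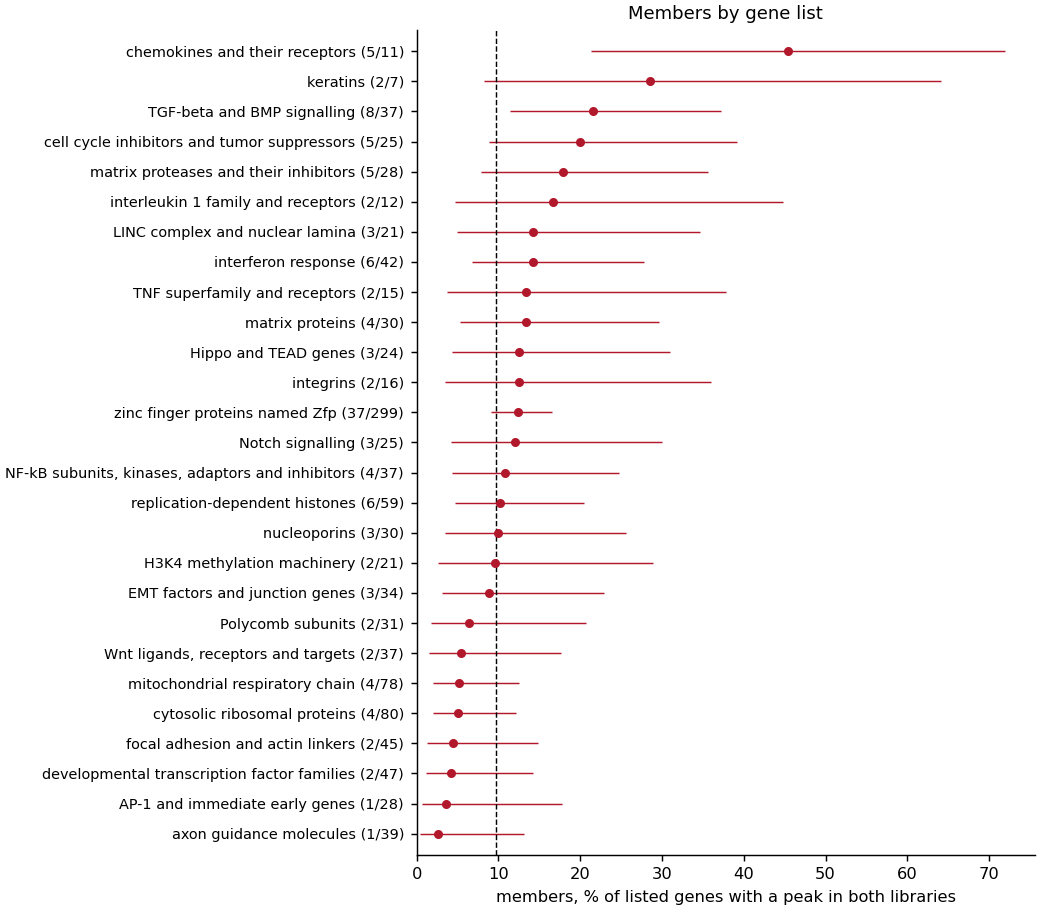
Share of members in percent (x axis) among the genes of each of 27 lists with an H3K4me3 peak in both libraries, with members and genes counted in brackets, 95% Wilson intervals as bars and a dashed line at the share over all genes (9.66%). Chemokines lie highest at 5 of 11, and most intervals include the dashed line.

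The members were unevenly spread over the chromosomes. Chromosome 4 held 181 members among 774 genes (23.4%, 20.5 to 26.5), chromosome 5 held 152 of 760 (20.0%, 17.3 to 23.0) and chromosome 18 held 56 of 295 (19.0%, 14.9 to 23.8). At the other end, chromosome 7 had 30 of 923 (3.25%) and chromosome 8 had 26 of 672 (3.87%). The median gene was also lower on the first 3, with a log2 ratio of -0.72 on each, against -0.36 on both chromosomes 7 and 8. After each gene was set against its chromosome median, 8, 6 and 0 genes of chromosomes 4, 5 and 18 were at or under 0.5.

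H3K27me3, which the rule did not use, was lowest on the same 3 chromosomes. Its median log2 ratio over pairs of matched peaks was -0.37 on chromosome 4, -0.29 on 5 and -0.38 on 18, below every other chromosome, and 0.04 on chromosome 8, the highest. The IgG reads of both lists come from the same control, at all 575 peaks with equal borders, so they carry no value for the KO line. The part of a chromosome-wide difference between the 2 lines in the members was not tested. Without chromosomes 4, 5 and 18, 789 of 10368 genes were members. On each chromosome the lowest member with at least 100 reads in the higher of the 2 libraries included Otud1 on 2 (934 and 206), Gm1045 on 5 (323 and 68.5), AU018091 on 7 (231 and 46.4), Bco2 on 9 (230 and 44.2), Stc1 on 14 (387 and 121) and Cyp1b1 on 17 (246 and 74.2), in scaled reads per kb of sg-Ctrl and KO.

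**Figure D5:**
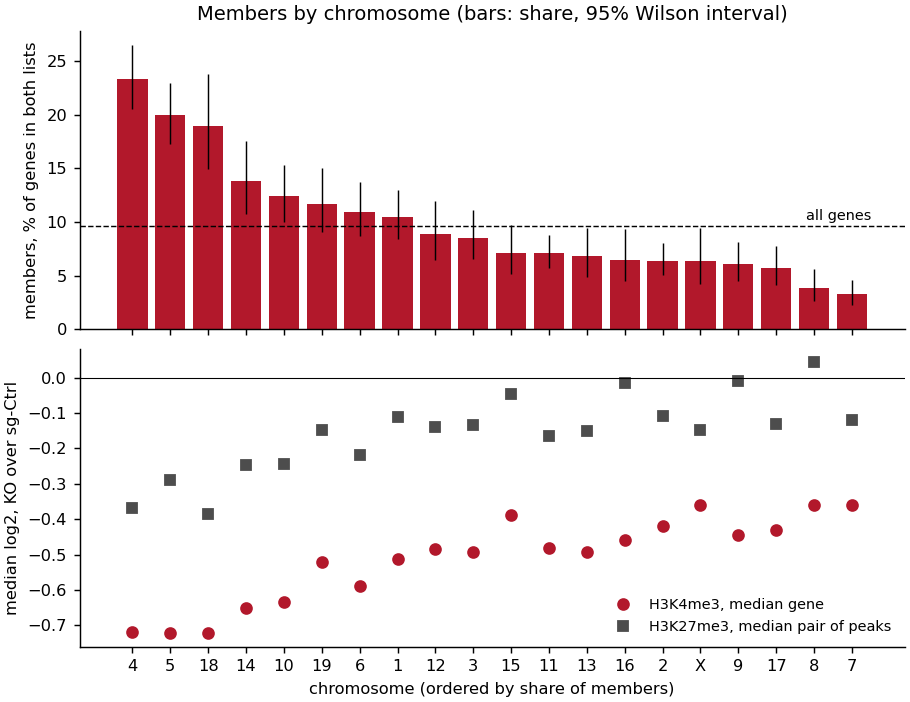
Upper panel, members in percent of the genes with a peak in both lists on each chromosome, with 95% Wilson intervals and a dashed line at 9.66% for all genes (1 gene on an unplaced contig is left out). Lower panel, median log2 ratio of KO over sg-Ctrl for H3K4me3 genes (circles) and matched H3K27me3 peaks (squares), which are lowest on chromosomes 4, 5 and 18 for both marks.

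Members were often neighbours, and many neighbouring genes shared a peak. The 1178 members stood on 996 distinct pairs of peaks. The next gene along the chromosome was a member for 28.1% of members and 7.68% of other genes, and with each pair of peaks counted once for 14.96% and 9.30%. On chromosomes 4, 5 and 18 the last 2 shares were 21.9% and 21.3%, and on the others 11.5% and 7.44%. Most members stood alone, with 733 runs of 1 peak, 86 of 2, 24 of 3 and 4 longer ones.

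H3K27me3 on the gene body was rare among members. In sg-Ctrl 56 members had such a peak (4.75%, 3.68 to 6.12), against 5.46% of all genes, and in KO 54 did (4.58%, 3.53 to 5.93), against 4.30%, so the intervals over all members include the shares of all genes. The members differed among themselves. Of the 462 with scaled reads of at most 0.5, the KO mark lay on 34 (7.36%, 5.31 to 10.1), an interval above the 4.30% of all genes, and the sg-Ctrl mark on 32 (6.93%, 4.95 to 9.61). Of the 655 with a smaller loss of reads, 18 (2.75%) and 22 (3.36%) carried it. In the next to lowest of 4 groups of sg-Ctrl H3K4me3 level, the KO mark lay on 7.10% of members and 2.39% of all genes. The sg-Ctrl mark lay there on 7.10% and 3.15%. In the lowest group the KO mark lay on 13.5% and 10.2%, and the sg-Ctrl mark on 12.2% and 13.2%. The third group had 3.26% and 2.40% in KO and 3.26% and 2.62% in sg-Ctrl. In the highest group these shares were 2.34% and 2.16% in KO and 3.01% and 2.85% in sg-Ctrl. Of the members, 9 had it in KO alone, where 0.558% of all genes did, and 11 in sg-Ctrl alone, where 1.72% did, so 0.764% of members combined lower H3K4me3 with an H3K27me3 peak listed in KO alone. Of these 9, 7 were among the 462 (1.52%, 0.736 to 3.09). The KO library of H3K27me3 was the deeper one, with a library ratio of 2.68 against 0.847.

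A KO peak of H3K27me3 reached the H3K4me3 peak itself, with none there in sg-Ctrl, in 7 members. That is 0.594% (0.288 to 1.22), beside 0.435% of all genes. The reverse, a sg-Ctrl peak there with none in KO, held for 8 members (0.679%) and 1.49% of all genes. C920009B18Rik had 1 KO peak of 37.0 kb at 1.68-fold over IgG. The peak at Cask, which encodes a membrane scaffold kinase, was 19.0 kb at 1.88-fold, and peaks at Mfap3l covered 71.0 kb at up to 2.93-fold. Col4a6 and Col4a5, collagen genes that start from a shared promoter, had H3K27me3 in both lines. At Col4a6 the peaks covered 40.0 kb in sg-Ctrl and 174 kb in KO, with highest folds of 7.80 and 7.28, while H3K4me3 reads were 2226 over 7 kb and 276 over 1.4 kb. Glo1, a detoxifying enzyme gene, had 5211 and 4075 H3K4me3 reads and no H3K27me3 peak on its own body.

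NUP210 peaks, called in sg-Ctrl cells, lay on the gene bodies of 433 members (36.8%, 34.1 to 39.5) and of 26.3% of all genes. NPC peaks lay on 399 members (33.9%, 31.2 to 36.6) and on 24.9% of all genes, and both lay on 357 members (30.3%, 27.7 to 33.0) and 21.3% of all genes. The median of the highest fold over IgG per member was 1.19 for NUP210 and 1.13 for NPC, beside 1.22 and 1.15 over all genes with a peak. At 2-fold or more, 16 members (1.36%) had a NUP210 peak, as did 1.35% of all genes. No member had an NPC peak of that height, and 23 other genes did. The lists themselves held weak peaks, since 31.0% of entries for NUP210 and 48.3% for NPC had an FDR above 0.05. The member with the strongest NUP210 peak was Nhsl1, chosen for this value after it was seen, at 3.78-fold.

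NUP210 was more frequent in members in each of 4 groups of H3K4me3 level, by an amount that differed between them. It lay on 22.3% of members and 16.7% of all genes in the lowest group, on 20.6% and 19.5% in the next, on 29.0% and 27.2% in the third, and on 48.1% and 41.9% in the highest. On chromosomes 4, 5 and 18 it lay on 21.9% of members and 21.8% of all genes, and elsewhere on 44.1% and 27.1%. Over 4 groups of gene length the share was higher in members in each, from 12.2% against 7.41% in the shortest genes to 64.3% against 55.2% in the longest. The part of H3K4me3 level in this difference was not tested. Among the genes described above, Nqo1, Hjurp, Cd47, Cxcl5, Cxcl2 and Ppbp had a NUP210 peak, and BC039966, Tnip1, Cxcl10 and Itgb2 had none.

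RefSeq promoter sequences were matched for 914 members and 9548 genes in both lists, which was 81.5% and 80.2% of those on chromosomes that the table covers. TATAAA occurred in 10.1% of member promoters (8.28 to 12.2) and 6.46% of all. A ratio of observed to expected CpG under 0.6 was found in 26.7% of members (23.9 to 29.7) and 23.0% of all. GGGCGG (the GC box) occurred in 60.5% and 67.7%, and the NF-kB letters in 1.09% and 0.796%, which is 10 members. The AP-1 motif was in 3.83% and 3.46%, and CCAAT in 39.7% and 39.3%. CACGTG (the E-box) was in 10.6% and 10.4%, TGACGTCA (the CRE) in 4.81% and 3.58%, GCGCATGCG (NRF1) in 4.05% and 4.08%, CCGGAAGT (ETS) in 9.52% and 9.35%, and GGAATG (TEAD) in 11.4% and 11.5%. All were searched on both strands.

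CpG-poor promoters were more frequent among the members whose scaled reads in KO were at most 0.5 of those in sg-Ctrl. Of the 344 matched members with scaled reads of at most 0.5, 41.6% (36.5 to 46.8) had a low CpG ratio and 12.5% (9.41 to 16.4) a TATA box, whereas of the 570 others 17.7% (14.8 to 21.1) and 8.60% (6.56 to 11.2) did. Il1a, Nqo1, Serpinb2, Inhba and C920009B18Rik were of the former kind and held a TATA box, that of Inhba at its RefSeq start. The 334 promoters of genes with scaled reads of at most 0.5 that were no members had a low CpG ratio in 32.9% (28.1 to 38.1) and a TATA box in 8.08%. These parts were split on the H3K4me3 reads, and no test was made.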

How the data were processed

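ChIP-seq peak lists of 4T1 cells were analysed, 1 library per mark and line, while 4 samples of RNA-seq were not used here. Per the study's methods, the authors called peaks with SICER against IgG (window 200 bp in H3K4me3, 1000 bp otherwise), and the deposited lists assign them to genes within 4 kb of a TSS (H3K4me3) or to gene bodies. The authors deposited, per peak, the raw count of ChIP and IgG reads, the p-value and FDR, and the ratio (fold) of ChIP over IgG scaled by library size. Where a peak had no IgG reads, the deposited fold corresponds to 0.25 reads. Library ratios were recovered from these columns, as 1.06 for sg-Ctrl and 1.35 for KO in H3K4me3. The role of each tool and build named in the submitters' processing notes (Trimmomatic, STAR, Picard, Bowtie2, mm9, mm10, NCBIM37) is not given there, and the ChIP aligner is not given in the sources used here. The start sites of 8547 of 9548 matched genes lay within 50 bp of RefSeq GRCm38.p6 starts, so list coordinates were taken as that build.

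Scaled reads per kb and log2 ratios were computed in Python 3.11.15 with numpy 2.4.6, pandas 2.3.3 and scipy 1.17.1, and plotted with matplotlib 3.10.9. Intervals of ratios are exact for the counts and shares have Wilson intervals, both at 95%. Reads are not independent molecules, so intervals cover counting error only. With 1 library per condition no test was run. Genes that share a peak are not independent. The calculation was tested on simulated counts with the same peak borders in both lists. That test did not cover changes of peak width or a shift of all genes. Gene bodies count as overlapped from 1 bp. Named genes are the 10 members with the lowest ratio, the 10 with the highest sg-Ctrl level, up to 3 of each gene list, the migration genes picked by the study, the 3 genes on either side of the threshold, the lowest member of each chromosome, up to 5 with H3K27me3 at the peak in KO alone, the 3 longest runs, and Nup210. Those chosen by ratio had at least 100 reads in the higher of the 2 libraries. The members and the gene lists were chosen with earlier results of these data known. Some genes, gene lists and 1 run of neighbouring genes covered by this rule are not reported here.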

Additional observations from a re-analysis of the deposited data

How the results depend on the processing

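Each count below replaces 1 choice and is to be read beside 1178 members. The count was 153 when the libraries were scaled by shared peaks, 233 without scaling, 113 and 102 after subtraction of the median of all genes or of the chromosome, and 2134 with the fold over IgG of the lists. The other choices of peak, filter, background or chromosome gave 789 to 1369. On the gene body, H3K27me3 lay on 4.75% of members in sg-Ctrl and 4.58% in KO. As a mean over 4 groups of sg-Ctrl level it was 6.38% and 6.55% beside 5.46% and 4.30% of all genes, and in KO without chromosomes 4, 5 and 18 it was 5.96% beside 4.48%, so there the members were above all genes. At the H3K4me3 peak it was 2.29% and 2.21%, beside 3.12% and 2.06%. For NUP210 and NPC, 36.8% and 33.9% (26.3% and 24.9% of all genes) became 25.6% and 16.6% at an FDR of at most 0.01 (18.8% and 13.7%), 1.36% and 0% at 2-fold or more (1.35% and 0.189%), 30.0% and 27.4% as a mean over the level groups, and 44.1% and 40.6% without those chromosomes (27.1% and 25.8%). The settings by level and without chromosomes for these 3 marks were chosen after seeing the data. Of 27 gene lists, 17 had a higher share of members than all genes, and 7 did after subtraction of the chromosome median. A member was followed by a member in 28.1% of cases and in 14.96% without shared peaks. With the 250 bases before the start alone, 31.8% of members had a low CpG ratio and 55.9% a GC box. The cause of these differences was not tested beyond what each setting changes. No paired analysis was possible because each condition had 1 library and no test was run. One library per condition, 1 clone and peak borders set separately in each library limit every ratio. For depth, 1173 members had at least 100 reads in the higher of the 2 libraries, and the upper counting limit of the ratio was at or under 0.5 for 793.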
